A study of Mus musculus with 6 samples.

Results

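The genes described here encode the proteins that hold epithelial cells together: claudins, classical cadherins and their catenins, nectins, junctional adhesion molecules, zonula occludens proteins and the MARVEL proteins occludin, tricellulin and MARVELD3. They were chosen by symbol, as every gene whose name begins with *Cldn*, *Cdh*, *Tjp*, *Nectin* (or the older *Pvrl*), *Marveld* or a catenin stem (*Ctnna*, *Ctnnb*, *Ctnnd*) followed by a digit, together with *Ocln*, *F11r*, *Jam2* and *Jam3*. This rule took 68 of the 17577 genes in the tables, namely 26 claudins, 23 cadherins, 6 catenins, 4 nectins, 3 junctional adhesion molecules, 3 MARVEL proteins and 3 zonula occludens proteins.

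Germinal vesicle (GV) oocytes, which are fully grown oocytes arrested in meiotic prophase, were profiled from 12-week-old C57BL/6 J mice primed with pregnant mare serum gonadotropin. Of the 6 libraries, 3 came from *Bnc1*tr/tr mice and 3 from wild-type (WT) mice, and per the methods of the study each cDNA was made from a single oocyte by a modified Smart-seq2 procedure. The *Bnc1*tr/tr mice are homozygous for a small deletion in exon 4 of *Bnc1* that shifts the reading frame of basonuclin 1, a zinc finger protein of oocytes and stratified epithelia. The mutation is present in every cell of the animal, not in the oocyte alone. Per the study's methods littermates were compared, and which animal gave which library was not stated, so the p-values below measure the spread between these libraries.

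In an epithelium, claudins polymerize into the tight junction strands that seal the space between cells or let selected ions through it, and zonula occludens proteins tie the strands to actin. Below the tight junction, cadherins bind the same cadherin on the next cell, and catenins join the cadherin tail to actin. In the follicle, E-cadherin and N-cadherin are known for contacts of the oocyte with granulosa cells, which reach it through the egg coat. Transcripts stored in a GV oocyte serve later stages too, and the preimplantation embryo builds its own adherens and tight junctions at compaction.

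All values are FPKM, the fragments of a gene scaled to the length of its transcript in kilobases and to the M (mega) fragments of its library. *Bnc1* transcript was lower in the *Bnc1*tr/tr libraries, at 7.13 ± 1.69 against 13.98 ± 1.97 FPKM (SD, n = 3 each, log2 fold change -0.89, limma adjusted p = 0.0090). Depth, estimated from the steps of low values, was 13.0 to 17.5 M fragments in *Bnc1*tr/tr and 14.9 to 21.6 M in WT libraries, so that 3 fragments on a transcript of 1 kb equal 0.139 to 0.231 FPKM. Oocyte markers such as *Gdf9*, *Zp3* and *Npm2* summed to 8955 to 10054 FPKM in *Bnc1*tr/tr against 7659 to 11576 in WT libraries, and of these 12 genes, all tested, 0 rose and 2 fell (*Zp2* and *Nlrp5*). More genes reached 1 FPKM in every *Bnc1*tr/tr library (10682 to 11035) than in any WT library (9518 to 9748). Fold changes are on the log2(FPKM + 1) scale, which understates changes of low genes.

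Junction transcripts were more abundant in *Bnc1*tr/tr oocytes. The 68 genes summed to 696, 638 and 646 FPKM across the *Bnc1*tr/tr libraries 1 to 3 and to 351, 379 and 419 FPKM in the WT libraries 1 to 3. The number of them at 1 FPKM or more was 34, 37 and 39 against 29, 28 and 29. Every *Bnc1*tr/tr library was above every WT library in both counts.

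Of the 68 genes, 37 averaged 1 FPKM or more across all 6 libraries and were tested, and 31 were not. Among the 37, 15 rose and 1 fell (limma, Benjamini-Hochberg adjusted p under 0.05 over 10560 genes and an absolute log2 fold change over 0.5). These are 40.5% higher and 2.70% lower, beside 24.1% higher and 7.68% lower (31.8% in either direction) among all tested genes. All 3 *Bnc1*tr/tr libraries were above all 3 WT libraries in 19 of the 37 (51.4%, beside 32.7% of all tested genes), and below them in 2 (beside 14.1%). The median log2 fold change was 0.59 over the 37 genes and 0.15 over all tested genes. A gene that passed the filter through its *Bnc1*tr/tr level alone had to differ. Of the 37, 8 had a WT mean under 1 FPKM, and 6 of these rose (75%, beside 78.4% of the 960 such genes in all). These 6 were *Cldn6*, *Cldn7*, *Cldn14*, *F11r*, *Marveld3* and *Cdh8*. Of the 27 with both group means at 1 FPKM or more, 9 rose (33.3%) and 1 fell, beside 19.0% and 7.87% of the 9439 such genes in all.

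How libraries were scaled moved the split of calls over all genes, from 75.8% higher in the values as deposited to 56.0% after median-ratio scaling, 50.8% after upper-quartile scaling and 48.0% after quantile normalization. Over all tested genes the median log2 fold change, 0.146 as deposited, became -0.047, -0.094 and -0.091. Relative to the median as deposited, the changes of the junction genes called lay between 0.59 for *Cdh19* and 3.74 for *Cldn7* among those that rose, and at -1.50 for *Cdh2*, the 1 that fell.

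**Figure D1:**
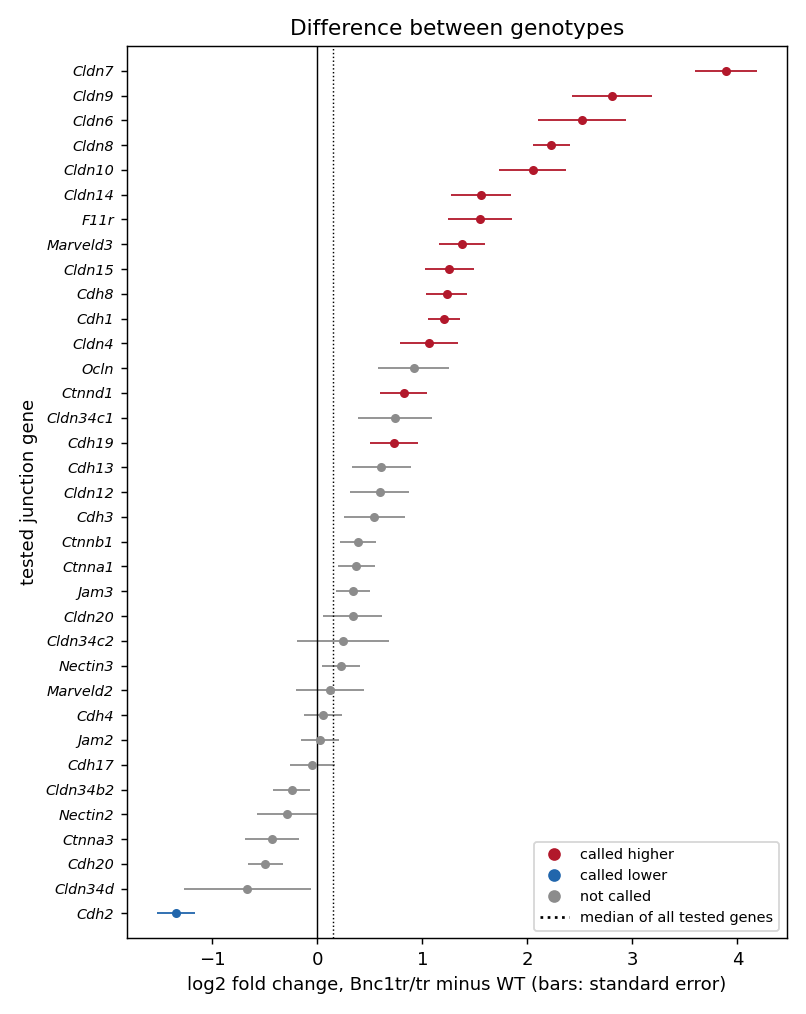
Log2 fold change on log2(FPKM + 1) of 35 of the 37 tested junction genes, *Bnc1*tr/tr minus WT, with standard errors (bars), ordered by size; red marks 14 genes called higher, blue the 1 called lower, grey 20 not called, and the dotted line the median of all tested genes (0.15). Claudins take the first 6 places, from *Cldn7* at 3.89 to *Cldn14* at 1.56, and *Cdh2* stands last at -1.35; some grey genes near 0 change sign with the scaling.

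The claudins held the largest changes. Of the 18 claudins outside the *Cldn34* group, 10 were tested, and 8 of them rose and none fell (*Cldn4*, *Cldn6*, *Cldn7*, *Cldn8*, *Cldn9*, *Cldn10*, *Cldn14* and *Cldn15*). Of the 6 with both group means at 1 FPKM or more, 5 rose (beside 19.0% of all such genes). The summed level of the 18 was 323, 285 and 264 FPKM across the *Bnc1*tr/tr libraries and 65.4, 56.5 and 56.9 FPKM in the WT libraries. *Cldn8* was the most abundant claudin in each *Bnc1*tr/tr library, and *Cldn34b2* in each WT library.

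*Cldn8* encodes a barrier-forming claudin best known from the distal nephron (chr16:88560826-88563183, GRCm38.p6). It had 154, 140.0 and 154 FPKM across the *Bnc1*tr/tr libraries and 36.3, 26.3 and 31.4 FPKM in WT. The lowest *Bnc1*tr/tr value was thus far above the highest WT value, and the libraries of each genotype lay close together. Its log2 fold change was 2.23 (standard error 0.17, limma adjusted p = 2.99e-05). *Cldn8* held 37.4%, 35.7% and 40.9% of the claudin sum in *Bnc1*tr/tr against 23%, 15.7% and 15.7% in WT oocytes.

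*Cldn7*, the claudin that binds EpCAM in simple epithelia (chr11:69964779-69967886), had 27.5, 11.7 and 17.2 FPKM in *Bnc1*tr/tr libraries. In the WT libraries it had 0.26, 0.54 and 0.04 FPKM, values that rest on few fragments at this depth. The *Bnc1*tr/tr libraries spread widely but stayed clear of WT, and the log2 fold change was 3.89 (standard error 0.29, limma adjusted p = 2.46e-05). Like *Cldn6* and *Cldn14* below, *Cldn7* passed the filter through its *Bnc1*tr/tr level alone.

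*Cldn6* and *Cldn9*, claudins of embryonic epithelia and of the inner ear, are neighbours on chromosome 17 that face each other with 138 bases between their ends (chr17:23679348-23682446 and chr17:23682584-23684026). *Cldn9* had 55.0, 33.1 and 24.7 FPKM in *Bnc1*tr/tr and 7.88, 3.75 and 2.41 FPKM in WT libraries (log2 fold change 2.81, SE 0.38, limma adjusted p = 0.00065). *Cldn6* had 10.3, 9.91 and 2.70 FPKM in *Bnc1*tr/tr and 0.36, 0.78 and 0 FPKM in WT libraries (log2 fold change 2.52, SE 0.42, limma adjusted p = 0.0020). Both rose, and in both the third *Bnc1*tr/tr library was the lowest of its group and still above every WT library. The libraries were made without strand marks, so fragments that run from one gene into the other cannot be told apart.

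*Cldn10*, which forms ion-selective pores, had 29.1, 54.8 and 35.2 FPKM in *Bnc1*tr/tr and 7.50, 5.92 and 13.6 FPKM in WT libraries (log2 fold change 2.05, SE 0.32, limma adjusted p = 0.0014). *Cldn15*, the sodium pore claudin of the intestine, had 29.5, 22.0 and 19.7 FPKM against 8.85, 12.3 and 7.12 FPKM (log2 fold change 1.26, SE 0.23, limma adjusted p = 0.0036). Neither pore-forming claudin overlapped between the groups. *Cldn14*, a barrier claudin of the inner ear and kidney, had 4.66, 4.18 and 2.32 FPKM against 0.57, 1.18 and 0.11 FPKM (log2 fold change 1.56, SE 0.29, limma adjusted p = 0.0035). *Cldn4*, an epithelial claudin and enterotoxin receptor, had 6.05, 4.35 and 2.36 FPKM against 1.22, 1.94 and 1.13 FPKM (log2 fold change 1.06, SE 0.27, limma adjusted p = 0.017). The margin of *Cldn4* was small, and it lost its call without *Bnc1*tr/tr library 1 (limma adjusted p = 0.058) or library 2 (limma adjusted p = 0.061), after quantile normalization (0.080) and with no filter on low values (0.054).

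The 2 tested claudins of this group that did not pass were *Cldn12* (2.23 ± 0.87 against 1.18 ± 0.75 FPKM, SD, n = 3 each) and *Cldn20* (1.22 ± 0.47 against 0.81 ± 0.69). *Cldn12* passed when WT library 1 was left out (log2 fold change 0.84, limma adjusted p = 0.046). *Cldn20* overlaps *Tfb1m* on the opposite strand, and its values are uncertain for that reason. Among the other tested members, *Ctnna1*, *Ctnna3* and *Ctnnb1* also overlap listed genes on the opposite strand (*Lrrtm2*, *Lrrtm3* and *Ulk4*). How far this moved their values was not tested.

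The *Cldn34* group, a set of similar claudin genes on the X chromosome, held no call. Of its 8 genes 4 were tested, and 0 passed in either direction. *Cldn34b2* had 79.2, 70.1 and 73.0 FPKM in *Bnc1*tr/tr and 75.3, 87.0 and 104 FPKM in WT libraries, with overlap between the groups (log2 fold change -0.24, limma adjusted p = 0.32). *Cldn34d* ranged from 2.68 to 22.1 FPKM in *Bnc1*tr/tr, against 10.6 to 25.5 in WT libraries. *Cldn34c1* (12.6 ± 4.97 against 7.28 ± 3.50 FPKM, SD, n = 3 each) passed when WT library 3 was left out (log2 fold change 1.05, limma adjusted p = 0.038). Values of *Cldn34b2* and *Cldn34c2* are uncertain, since other genes hold 60.3% and 96.9% of their 31-base words. The ratio of *Cldn8* to *Cldn34b2*, which does not depend on library scaling, was 1.95, 2.0 and 2.11 in *Bnc1*tr/tr and 0.482, 0.303 and 0.303 in WT libraries. This pair was chosen after its values were seen.

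**Figure D2:**
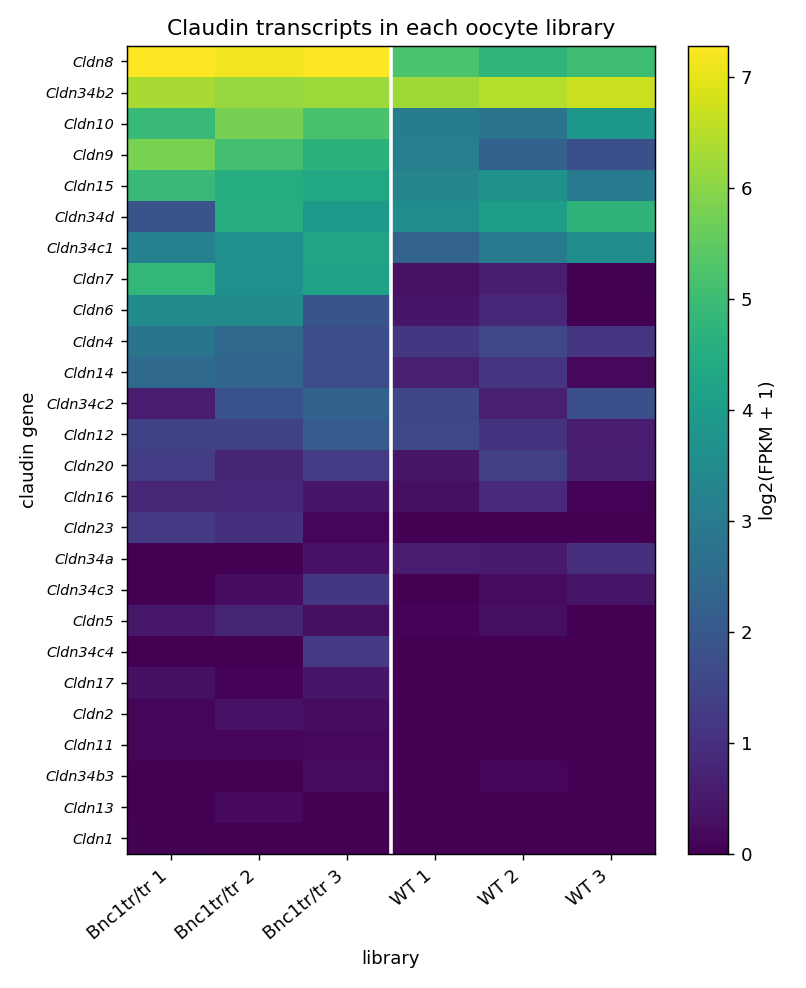
Levels of the 26 claudins (rows, ordered by mean FPKM) in the 6 libraries (columns) as log2(FPKM + 1), dark to bright. *Cldn8*, *Cldn10*, *Cldn9* and *Cldn7* are brighter in all 3 *Bnc1*tr/tr columns, whereas *Cldn34b2* is bright in all 6; the last 4 rows are near 0 in every library.

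Upstream sequence was examined because several claudins moved together. RefSeq windows (GRCm38.p6, the build named in the submitters' processing notes) were found for 45 of the 68 genes, and the 250 bases before each start were searched on both strands for CACCTG (reverse CAGGTG), the E-box bound by Snail-family repressors, GGAATG, the core bound by TEAD factors, AACCGGTT, the core bound by Grainyhead-like factors, and TATAAA. No motif contains another. CACCTG stood in 11 of the 45 genes (24.4%), beside 19.4% of all 27025 genes with a window. Among the genes that rose and had a window it stood in 5 of 9 (*Cldn4*, *Cldn6*, *Cldn7*, *Cldn14* and *F11r*). Among those tested and not called it stood in 2 of 13 (*Nectin2* and *Ocln*). Of the 5 that rose, all but *Cldn4* had passed the filter through their *Bnc1*tr/tr level alone. *Cldn10*, *Cldn15* and *Ctnnd1*, which rose with both group means at 1 FPKM or more, had windows without CACCTG. A link of the motif to the rises was not tested. *Cldn8*, *Cldn9*, *Cdh1* and *Marveld3* were among the genes that rose without a window. The matching windows of *Cldn6*, *Cldn7* and *F11r* held 116, 221 and 34 bases of annotated exons. Genes with several windows, such as *Cldn7*, *Cldn14* and *Ocln*, had more places for a match. GGAATG stood in 9 of 45 (20.0%, beside 14.4%), TATAAA in 6 of 45 (13.3%, beside 14.3%) and AACCGGTT in 0 of 45 (beside 0.137%). These matches are a description of the letters in the window. The windows of *Cldn4* and *Cldn14* are shown as those of called genes with an E-box close to the start and no annotated exon inside, and that of *Cldn7* as that of the largest rise. Capitals mark CACCTG or CAGGTG, and each run reads 5′ to 3′ on the strand of the gene. *Cldn4* lies on the minus strand (chr5:134946935-134947184) and its E-box begins 14 bases before the start. *Cldn14* also lies on the minus strand (chr16:93929818-93930067, 1 of 3 windows) and its E-box begins 31 bases before the start. *Cldn7* lies on the plus strand (chr11:69964529-69964778), and this window has no CACCTG but a GGAATG 70 bases before the start, while its other start has CACCTG at 97 and 57 bases.
*Cldn4*: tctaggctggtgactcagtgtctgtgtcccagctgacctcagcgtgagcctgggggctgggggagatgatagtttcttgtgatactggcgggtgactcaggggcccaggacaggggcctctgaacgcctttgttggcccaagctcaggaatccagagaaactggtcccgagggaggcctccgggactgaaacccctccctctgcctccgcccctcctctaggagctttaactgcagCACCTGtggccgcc
*Cldn14*: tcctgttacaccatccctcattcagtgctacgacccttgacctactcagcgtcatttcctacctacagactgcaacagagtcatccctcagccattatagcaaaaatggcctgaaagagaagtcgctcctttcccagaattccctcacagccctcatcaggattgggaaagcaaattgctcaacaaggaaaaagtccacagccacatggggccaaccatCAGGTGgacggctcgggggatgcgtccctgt
*Cldn7*: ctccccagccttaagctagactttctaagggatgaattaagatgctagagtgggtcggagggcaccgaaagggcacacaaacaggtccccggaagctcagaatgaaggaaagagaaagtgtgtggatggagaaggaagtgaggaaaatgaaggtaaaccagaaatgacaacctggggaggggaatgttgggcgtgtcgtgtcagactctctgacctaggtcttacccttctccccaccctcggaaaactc

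Other transmembrane proteins of the tight junction were mixed. *F11r*, which encodes JAM-A, had 4.90, 1.62 and 1.79 FPKM in *Bnc1*tr/tr and 0.06, 0.16 and 0.41 FPKM in WT libraries (log2 fold change 1.55, SE 0.30, limma adjusted p = 0.0048). *Marveld3*, the gene of a MARVEL protein of epithelial tight junctions, had 2.17, 2.39 and 2.24 FPKM against 0.77, 0.08 and 0.04 FPKM (log2 fold change 1.38, SE 0.22, limma adjusted p = 0.0018). In both genes WT values were low, and both passed the filter through their *Bnc1*tr/tr level alone. The groups did not overlap, which such a passage through the filter favours.

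*Ocln*, occludin itself, had 6.57, 6.21 and 5.96 FPKM in *Bnc1*tr/tr and 4.31, 4.16 and 1.06 FPKM in WT libraries. Its groups did not overlap, but it did not pass (log2 fold change 0.92, SE 0.34, limma adjusted p = 0.067). It passed in some alternatives, among them without WT library 1 (log2 fold change 1.15, limma adjusted p = 0.038). *Marveld2*, which encodes tricellulin, the protein of tricellular contacts and a neighbour of *Ocln* on chromosome 13, overlapped between the groups at 4.79 ± 1.65 and 4.50 ± 2.06 FPKM (SD, n = 3 each, log2 fold change 0.12, limma adjusted p = 0.81). *Jam2* overlapped as well (5.60 ± 0.32 against 5.57 ± 1.26), and *Jam3* did not overlap but did not pass (20.3 ± 2.63 against 15.8 ± 0.41, log2 fold change 0.34, limma adjusted p = 0.15).

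Of the cytoplasmic zonula occludens proteins, *Tjp1*, encoding ZO-1, had 3.25, 2.97 and 3.81 FPKM in *Bnc1*tr/tr and 2.95, 2.66 and 5.19 FPKM in WT libraries, with overlap (log2 fold change -0.05, limma adjusted p = 0.90). *Tjp3* was listed at 0 in every *Bnc1*tr/tr library and at 0.12 FPKM or less in WT.

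The classical cadherins *Cdh1* and *Cdh2* moved in opposite directions. *Cdh1*, encoding E-cadherin (chr8:106603350-106670247), had 29.7, 27.7 and 27.7 FPKM in *Bnc1*tr/tr and 11.4, 12.1 and 11.8 FPKM in WT libraries. *Cdh2*, encoding N-cadherin, had 2.42, 2.99 and 2.86 FPKM in *Bnc1*tr/tr and 8.36, 7.17 and 10.4 FPKM in WT libraries. Neither gene overlapped between the groups, and the libraries of a group differed little. The log2 fold changes were 1.21 for *Cdh1* (SE 0.15, limma adjusted p = 0.00041) and -1.35 for *Cdh2* (SE 0.18, limma adjusted p = 0.00062). The ratio of *Cdh1* to *Cdh2* within a library was 12.3, 9.26 and 9.68 in *Bnc1*tr/tr and 1.36, 1.68 and 1.13 in WT libraries, a value that scaling leaves as it is. This ratio was chosen after the values were seen and was given no test. *Cdh1* made up 52.4% to 55.4% of the cadherin sum in *Bnc1*tr/tr and 32.8% to 35.7% in WT libraries.

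*Cdh3*, encoding P-cadherin, is the neighbour of *Cdh1* on chromosome 8, 46439 bases away. It had 3.72, 1.47 and 2.31 FPKM in *Bnc1*tr/tr and 2.13, 1.36 and 0.70 FPKM in WT libraries, with overlap (log2 fold change 0.54, limma adjusted p = 0.19). Of the type II cadherins, which are best known from the nervous system, *Cdh8* had 4.27, 3.39 and 3.13 FPKM against 0.72, 0.80 and 1.39 FPKM (log2 fold change 1.23, SE 0.19, limma adjusted p = 0.0015). *Cdh19* had 2.65, 3.67 and 4.62 FPKM against 1.65, 1.24 and 2.52 FPKM (log2 fold change 0.73, SE 0.23, limma adjusted p = 0.038). *Cdh8* was clear of WT but passed the filter through its *Bnc1*tr/tr level alone, with a WT mean of 0.97 FPKM. The lowest *Cdh19* value in *Bnc1*tr/tr was next to the highest in WT. The call of *Cdh19* was lost without *Bnc1*tr/tr library 2 (limma adjusted p = 0.0999) or 3 (0.13), without WT library 1 (0.085) or 2 (0.15), and under each other scaling (limma adjusted p from 0.11 to 0.40), as well as with no filter (0.076) or a pseudocount of 0.1 (0.0502). *Cdh20* had 0.82, 0.76 and 0.48 FPKM against 1.58, 1.43 and 1.12 FPKM, below WT in every library but not past the thresholds (log2 fold change -0.50, limma adjusted p = 0.053); it was called lower after each other scaling and without WT library 3 (limma adjusted p = 0.034). *Cdh4*, *Cdh13* and *Cdh17* overlapped between the groups, with log2 fold changes from -0.05 to 0.61; *Cdh13* was called higher without *Bnc1*tr/tr library 1 (log2 fold change 0.89, limma adjusted p = 0.037).

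**Figure D3:**
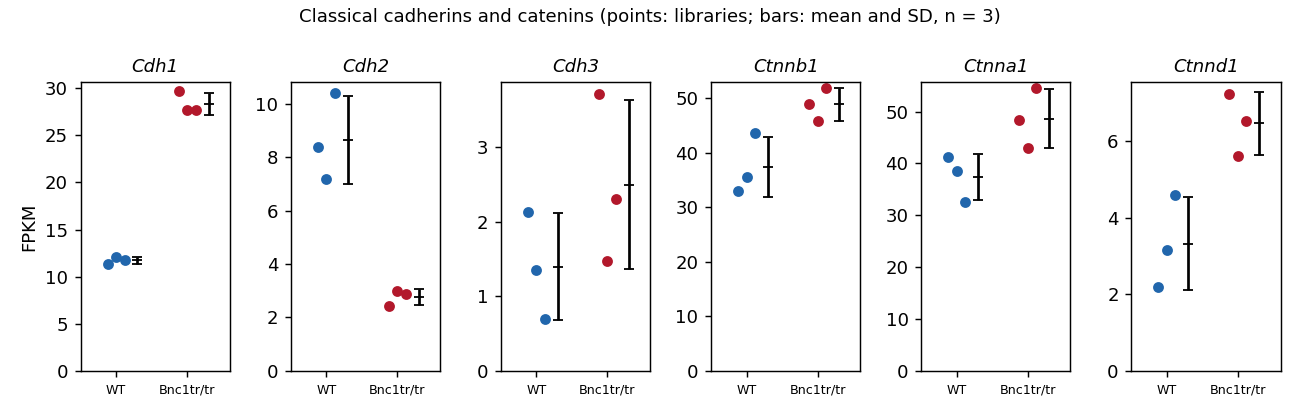
FPKM (vertical axis from 0, its own scale in each panel) of 3 classical cadherins and 3 catenins in WT (blue) and *Bnc1*tr/tr (red) libraries, with mean and SD (bars, n = 3). *Cdh1* lies at 27.7 to 29.7 against 11.4 to 12.1 and *Cdh2* at 2.42 to 2.99 against 7.17 to 10.4, while *Cdh3* overlaps and *Ctnnb1* and *Ctnna1* shift by less.

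The catenins that link cadherins to actin were among the more abundant junction transcripts in both genotypes. *Ctnnb1*, encoding β-catenin, had 49.1, 45.8 and 51.9 FPKM in *Bnc1*tr/tr and 32.9, 35.6 and 43.6 FPKM in WT libraries. *Ctnna1*, encoding αE-catenin, had 48.3, 43.1 and 54.5 FPKM against 41.2, 38.5 and 32.5 FPKM. Every *Bnc1*tr/tr library was above every WT library in both, but with log2 fold changes of 0.39 (limma adjusted p = 0.12) and 0.37 (limma adjusted p = 0.14) neither passed. *Ctnnb1* passed when WT library 3 was left out (log2 fold change 0.50, limma adjusted p = 0.045).

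*Ctnnd1*, encoding p120-catenin, which keeps cadherins at the membrane, had 7.25, 5.62 and 6.53 FPKM in *Bnc1*tr/tr and 2.2, 3.16 and 4.61 FPKM in WT libraries (log2 fold change 0.82, SE 0.22, limma adjusted p = 0.022). It rose, but its value is uncertain, since an annotated read-through transcript holds 58.6% of its 31-base words, and the call was lost under each other scaling (limma adjusted p from 0.071 to 0.17) and without *Bnc1*tr/tr library 1 (0.077) or 3 (0.063) or WT library 1 (0.063) or 2 (0.068). *Ctnna3*, the αT-catenin gene, overlapped at 19.5 ± 2.96 against 27.6 ± 9.43 FPKM (SD, n = 3 each, log2 fold change -0.43, limma adjusted p = 0.23).

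Nectins start cell contacts together with cadherins and bind afadin inside the cell. *Nectin3* was the most abundant, at 35.2 ± 3.40 FPKM in *Bnc1*tr/tr against 30.2 ± 4.56 in WT libraries (SD, n = 3 each), with overlap (log2 fold change 0.22, limma adjusted p = 0.38). *Nectin2* had 1.74, 0.30 and 0.79 FPKM against 2.01, 0.91 and 1.01 FPKM, also with overlap (log2 fold change -0.29, limma adjusted p = 0.49). *Nectin1* and *Nectin4* stayed at or under 0.18 FPKM in every library.

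The 31 genes that were not tested were low. In 24 of them no library reached 1 FPKM, 13 were listed at 0 in every WT library and 3 in every *Bnc1*tr/tr library. The share of all untested genes listed at 0 in a genotype was not computed. Over all genes too, more were above 0 in the *Bnc1*tr/tr libraries (15258 to 15736) than in the WT libraries (13896 to 14576). *Cldn2*, *Cldn11*, *Cldn17*, *Cldn23* and *Cdh24* were listed at 0 in WT and above 0 in each *Bnc1*tr/tr library. Of these *Cldn23* was the highest, with 1.34, 0.98 and 0.07 FPKM, and the other 4 stayed at or under 0.37 FPKM. *Cdh12* had 0.91, 1.08 and 1.19 FPKM against 0, 0 and 0.03 FPKM. *Cdh5*, the cadherin of endothelium, was listed at 0 in 5 libraries and at 0.02 FPKM in the other.

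Further junction genes were read from lists of partners of the same structures. The tables held 81 such genes. Among the 44 of them tested, 18 rose and 4 fell (40.9% and 9.09%, beside 24.1% and 7.68% of all tested genes). Of these, 7 had a WT mean under 1 FPKM, passed the filter through their *Bnc1*tr/tr level and all rose, beside 78.4% of the 960 such genes in all. Of the 37 with both group means at 1 FPKM or more, 11 rose (29.7%) and 4 fell (10.8%), beside 19.0% and 7.87% of all such genes. The polarity and tight junction plaque list gave 6 rises and 3 falls among 20 tested (30% and 15%, beside 24.1% and 7.68%). Of the 18 with both means at 1 FPKM or more, 4 rose (22.2%) and 3 fell (16.7%), beside 19.0% and 7.87% of all such genes. The other 2, *Amotl1* and *Amotl2*, passed the filter through their *Bnc1*tr/tr level alone. The rises included those of *Amotl2* (5.18 ± 1.07 against 0.0167 ± 0.0153 FPKM, SD, n = 3 each, log2 fold change 2.59) and *Amotl1* (3.83 ± 0.70 against 0.99 ± 0.32, 1.28), both angiomotin-like scaffolds. With them rose *Prkci*, the gene of atypical protein kinase C iota (14.4 ± 2.41 against 4.77 ± 1.24, 1.43), and *Pard6g*, of the PAR polarity complex (11.7 ± 1.47 against 4.31 ± 0.78, 1.26). Limma adjusted p was from 1.37e-05 to 0.0011 for these 4 genes. The 3 that fell were *Cgn*, encoding cingulin (6.54 ± 2.12 against 14.9 ± 3.54, -1.10, limma adjusted p = 0.010), *Ybx3* (-0.70, limma adjusted p = 0.033) and *Mpdz*, a multi-PDZ scaffold (-0.66, limma adjusted p = 0.016). These 3 genes were named after their values were seen.

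In the adherens plaque list 5 genes were tested. *Lima1* rose (log2 fold change 0.88, limma adjusted p = 0.0097) but passed the filter through its *Bnc1*tr/tr level alone. *Afdn*, encoding the nectin partner afadin, fell (5.69 ± 0.95 against 9.72 ± 0.56 FPKM, SD, n = 3 each, log2 fold change -0.69, limma adjusted p = 0.015). Desmosome genes gave 4 rises and 0 falls among 6 tested: *Dsg1a*, a desmoglein (6.37 ± 0.21 against 0.85 ± 0.11 FPKM, log2 fold change 1.99), *Perp* (1.43), *Dsc2*, a desmocollin (0.67), and *Pkp4* (0.57), with limma adjusted p from 2.63e-05 to 0.034. *Dsg1a* and *Perp* passed the filter through their *Bnc1*tr/tr level alone, and of the 4 desmosome genes with both means at 1 FPKM or more 2 rose (beside 19.0% of all such genes). Of the atypical cadherins, 2 were tested and *Celsr1*, of planar polarity, rose (9.50 ± 2.0 against 2.63 ± 0.44 FPKM, log2 fold change 1.52, limma adjusted p = 0.00051). Of the remaining tight junction membrane proteins *Lsr* and *Ildr1* were tested, and 0 rose or fell.

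Regulators of epithelial genes gave 6 rises and 0 falls among 9 tested (66.7% higher, beside 24.1% of all tested genes). Of the 7 with both means at 1 FPKM or more, 4 rose (57.1%, beside 19.0% of all such genes). The other 2, *Esrp2* and *Ovol1*, passed the filter through their *Bnc1*tr/tr level alone. *Elf3*, an epithelial ETS factor, had 176, 136 and 102 FPKM in *Bnc1*tr/tr and 13.7, 9.70 and 6.27 FPKM in WT libraries (log2 fold change 3.70, SE 0.29, limma adjusted p = 2.91e-05). *Snai1*, a repressor known to act on the *Cdh1* E-boxes, had 12.5, 6.51 and 6.49 FPKM against 1.91, 1.47 and 0.30 FPKM (log2 fold change 2.12, SE 0.34, limma adjusted p = 0.0016). *Snai1* and *Cdh1* were thus both above WT in all 3 *Bnc1*tr/tr libraries. *Esrp2*, an epithelial splicing factor, and *Grhl2*, a Grainyhead-like activator of *Cdh1* and claudin genes, rose by log2 fold changes of 1.63 and 1.03 (limma adjusted p = 0.00024 and 0.0018). Both were low, at 2.61 against 0.16 FPKM and 3.17 against 1.05 FPKM. The more abundant *Esrp1* was lower in every *Bnc1*tr/tr library but not called (34.9 ± 1.78 against 46.9 ± 4.59 FPKM, SD, n = 3 each, log2 fold change -0.41, limma adjusted p = 0.079). *Grhl1*, also more abundant, overlapped (18.9 ± 2.12 against 19.1 ± 3.06). *Snai2*, *Zeb1* and *Zeb2* stayed under 1 FPKM in every library.

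Markers of other cells moved with the genotype too, and their part in the junction results was not tested. Surface epithelium markers summed to 12.4 to 35.6 FPKM in *Bnc1*tr/tr against 1.38 to 3.25 in WT libraries. Of 8 genes 4 were tested and 3 rose (*Krt8*, *Krt18* and *Upk3b*), while *Epcam* overlapped (1.30 ± 0.41 against 0.83 ± 0.63 FPKM, SD, n = 3 each). Of the untested, *Lgr5* (1.12 ± 0.36 against 0.11 ± 0.09) and *Krt7* (0.56 ± 0.23 against 0.14 ± 0.12) were above WT in every *Bnc1*tr/tr library. *Muc16* and *Upk1b* stayed at or under 0.08 FPKM. Stratified epithelium markers summed to 95.2 to 161 FPKM against 22.9 to 25.3, most of the difference from *Sprr1a*; of 6 genes 4 were tested and 2 rose, and *Krt1* was at or under 0.03 FPKM. Granulosa and cumulus markers summed to 43.3 to 60.5 FPKM against 22.9 to 40.1, mostly from *Cyp19a1*, which overlapped (35.1 ± 8.58 against 23.3 ± 5.79). Of 11 genes 5 were tested and 2 rose (*Fshr* and *Kitl*). *Inha* (0.69 ± 0.97 against 3.42 ± 3.37 FPKM), *Hsd17b1* and *Fst* had lower means in *Bnc1*tr/tr, with overlap. *Foxl2* and *Amhr2* were listed at 0 in every *Bnc1*tr/tr library and at 0.21 FPKM or less in WT. Theca and stroma markers summed to 5.91 to 9.76 FPKM against 1.40 to 2.09, and of 6 genes *Dcn* was tested and rose. Of the untested, *Pdgfra* (0.50 ± 0.13 against 0.06 ± 0.02 FPKM) and *Lum* (1.06 ± 1.02 against 0) were above WT in every *Bnc1*tr/tr library, while *Cyp17a1*, *Col1a1* and *Acta2* overlapped. Endothelial markers summed to 11.8 to 12.8 FPKM against 11.6 to 13.0. Of 6 genes 3 were tested, 1 rose and 1 fell. *Krt8*, *Krt18*, *Upk3b*, *Epcam*, *Sprr1a* and *Fshr* had a WT mean under 1 FPKM and passed the filter through their *Bnc1*tr/tr level. Of the 960 such genes in all, 78.4% rose.

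Immune markers summed to 5.94 to 68.5 FPKM in *Bnc1*tr/tr against 2.83 to 4.23 in WT libraries, with 5 of 9 tested and 1 called higher (*Laptm5*), and red cell markers to 0 to 10.1 FPKM against 0, with 1 of 3 tested and 0 called. In *Bnc1*tr/tr library 3, 4 of the 9 immune markers (*Ptprc*, *Cd52*, *Lyz2* and *Tyrobp*) and the 3 red cell markers were listed at 0. The immune sum of that library, 5.94 FPKM, was still above every WT library, with *Laptm5* at 4.11 FPKM (1.17 to 1.44 in WT), *C1qa* at 0.61 and *Adgre1* at 0.13 FPKM (both listed at 0 in WT). Surface epithelium markers summed to 12.4 FPKM in that library and theca and stroma markers to 5.91 FPKM, against at most 3.25 and 2.09 in WT. In that library *Cldn7* stood at 17.2 FPKM, *Cldn8* at 154 FPKM, *Cdh1* at 27.7 FPKM and *Cdh2* at 2.86 FPKM. *Cldn4* (2.36 FPKM), *Cldn6* (2.70), *Cldn9* (24.7) and *Cldn14* (2.32) were among the genes lowest of their group there. With library 3 alone against the WT libraries, the median log2 fold change was 0.54 over 33 junction genes and 0.10 over all genes. It was 3.85 for *Cldn7*, 2.27 for *Cldn8*, 1.17 for *Cdh1* and -1.31 for *Cdh2*, genes chosen after their values were seen. For *Cldn9*, *Cldn14* and *Cldn4* it was 2.29, 1.09 and 0.48, each smaller than with all 3 *Bnc1*tr/tr libraries. Transcripts of the oocyte and of cells that adhere to it cannot be told apart in these libraries.

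**Figure D4:**
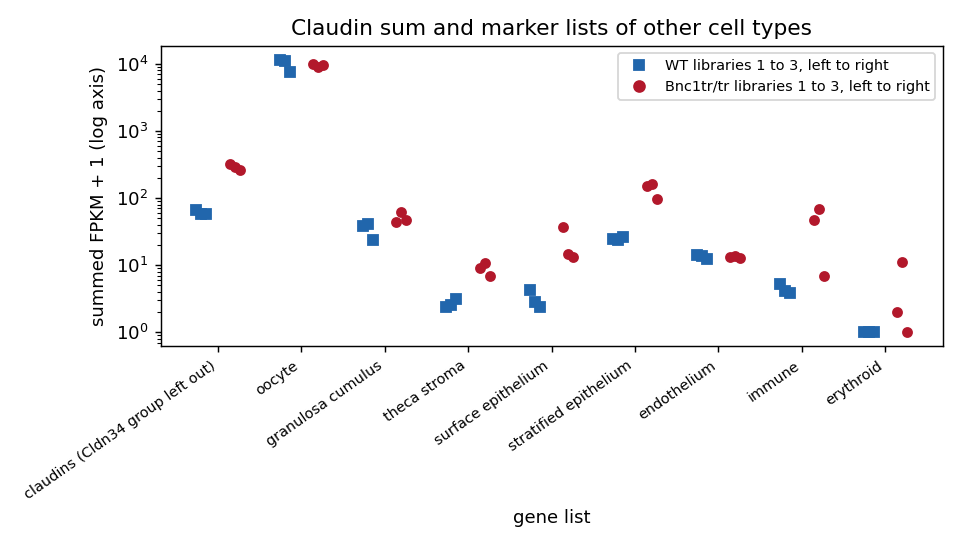
Summed FPKM + 1 (log axis) of the 18 claudins outside the *Cldn34* group and of each marker list, with WT libraries 1 to 3 as blue squares and *Bnc1*tr/tr libraries 1 to 3 as red circles, left to right. The claudin sums (264 to 323 against 56.5 to 65.4 FPKM) separate the genotypes in every library. So do the lists of surface epithelium, stratified epithelium, granulosa and cumulus, theca and stroma, and immune cells. The oocyte and endothelium lists overlap, and the immune and red cell lists are highest in *Bnc1*tr/tr libraries 1 and 2.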

How the data were processed

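The authors deposited 1 table per library with FPKM values to 2 decimals, and the submitters' processing notes name HISAT2 2.0.4, Bowtie2 2.2.5, RSEM 1.2.12 and the build GRCm38.p6, without their roles. Since FPKM divides by the fragments of the whole library, abundant transcripts that change move the values of the others. No counts accompanied the values, and Smart-seq2 cDNA is amplified without molecular identifiers, so fragments are not independent molecules. Date-like entries stood in place of 25 symbols, and the symbols were restored by NCBI Gene ID.

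Groups followed the genotype label. Genes averaging 1 FPKM or more across all 6 libraries were compared on log2(FPKM + 1), computed from the deposited FPKM, with limma 3.58.1 in R 4.3.3. A gene was called with a Benjamini-Hochberg adjusted p under 0.05 over all 10560 tested genes and a log2 fold change beyond 0.5 in either direction, as the study used. Over all genes 2547 were called higher and 811 lower, and 4525 had an unadjusted p under 0.05. Tested on simulated data of the same 10560 genes, the test recovered 132 of 200 altered genes (66%) and made 8 false calls. The simulation raised as many genes as it lowered and shifted no library as a whole. Its false calls therefore do not cover errors that come from library scaling. The smallest p of an exact permutation test of 3 against 3 libraries is 0.10, so none was used for single values.

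The members and lists were chosen with earlier results of these data known. Every called member but 1, which is not reported here, was named with its values, as were *Cdh1*, *Cdh2*, *Cdh3*, *Ctnna1*, *Ctnnb1*, *Ctnnd1*, *Tjp1*, *Ocln*, *F11r*, *Nectin2* and *Marveld2*. Of each partner list up to 4 called genes were named by the size of the log2 fold change. Members under the filter are given by counts and ranges, with those named chosen after their values were seen. The depth estimate used the spacing of low FPKM values in 809 genes with a single transcript and entered no test. Positions, promoters and neighbours came from RefSeq, and shared 31-base words and overlaps from GENCODE M21, both on GRCm38. Alternatives were other filters (none, or a mean of at least 5 FPKM), a pseudocount of 0.1, upper-quartile and median-ratio scaling, quantile normalization, limma with trend and robust variances, no fold threshold, the replicate number as a block and leaving out each library. The comparison of *Bnc1*tr/tr library 3 alone with WT was chosen after the data were seen. Figures were drawn with matplotlib 3.10.9.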

Additional observations from a re-analysis of the deposited data

How the results depend on the processing

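All 16 called junction genes kept their direction in every alternative in which they were tested, and 13 kept the call in each planned one, the exceptions being *Cldn4*, *Ctnnd1* and *Cdh19*. Where a cause is not given, it was not tested. With a mean of at least 5 FPKM, which left 17 junction genes tested, 7 were called higher, beside 7 partner genes and 1413 genes over all. The lower junction genes numbered 2 with a pseudocount of 0.1 and under each scaling, *Cdh20* joining *Cdh2*. Lower genes over all numbered 1794 (upper-quartile), 1535 (median-ratio) and 1811 (quantile), lower partner genes 8, 7 and 11, and higher genes over all 1670 after quantile normalization. With *Bnc1*tr/tr library 3 alone against WT, 720 genes were called higher and 143 lower over all, with 3 junction and 5 partner genes higher and 0 partner genes lower, and *Bnc1* had a log2 fold change of -1.12 (limma adjusted p = 0.059).

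With 1 library left out, higher genes over all ran from 1867 to 2560 and lower genes from 416 (without WT library 2) to 1037, also falling to 523 and 535 without *Bnc1*tr/tr library 1 and 3. Junction genes called higher ran from 13 to 17 and lower from 1 to 2 (2 without WT library 3), and partner genes higher from 13 to 17 and lower from 2 (without *Bnc1*tr/tr library 1 or WT library 2) to 4. Same-numbered libraries did not deviate together throughout (correlations of 0.28, -0.03 and 0.12), and only for number 1 did both libraries correlate best with their own number. A replicate block gave 2781 higher and 952 lower genes, among them 17 and 1 junction genes, *Cldn34c1* and *Ocln* being gained (limma adjusted p = 0.010 and 0.029), and 18 and 4 partner genes.

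Reversals fell on 9 uncalled junction genes. Log2 fold changes with the upper-quartile, median-ratio and quantile scalings were -0.092, -0.063 and -0.37 for *Cdh4*, -0.21, -0.17 and -0.33 for *Jam2*, and -0.098, -0.055 and -0.26 for *Marveld2*. *Nectin3* was at -0.046 under upper-quartile scaling, and *Cldn20* at -0.080 and *Cldn34c2* at -0.14 after quantile normalization. Against WT, library 3 alone gave -0.041 for *Jam2*, -0.026 for *Marveld2* and 0.10 for *Tjp1*. With 1 library left out, the ranges were -0.25 to 0.12 for *Cdh17*, -0.060 to 0.14 for *Cdh4*, -0.10 to 0.74 for *Cldn34c2*, -1.21 to 0.12 for *Cldn34d*, -0.11 to 0.17 for *Jam2*, -0.24 to 0.31 for *Marveld2* and -0.19 to 0.19 for *Tjp1*. Levels under 0.139 to 0.231 FPKM, the value of 3 fragments on 1 kb, are not resolved at this depth.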
